A study of Homo sapiens with 3 samples.

Results

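The sites described here are stretches of intronic RNA that a PAR-CLIP experiment on the nuclear protein MATR3 recovered with many reads in both wild-type libraries. A site was taken wherever an intronic cluster with at least 50 reads in wild-type (WT) replicate 1 shared 1 nt or more, in the same orientation, with an intronic cluster with at least 50 reads in WT replicate 2. That gave 1232 sites among the 87230 clusters of all kinds in WT replicate 1, and they were met by 1241 clusters of WT replicate 2. The sites were selected on their reads and on the overlap, so those values describe them and test nothing.

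All libraries came from HAP1, an established near-haploid human line derived from the chronic myeloid leukaemia line KBM-7. The groups were unmodified WT HAP1 cells, with 2 libraries (replicates 1 and 2, here WT1 and WT2), and a purchased MATR3 knockout (KO) HAP1 line, with 1 library that served as the negative control. The labels record no treatment besides crosslinking, and name anti-FLAG beads for the immunoprecipitation without recording a tagged protein in either line. The series design calls the WT libraries independent, but the labels do not say what separates them, so their spread may be technical. A single KO library allows no test between genotypes. The 95% Wilson intervals given below cover counting error only, since reads carry no molecular identifiers and clusters of 1 library share their source.

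MATR3 is an abundant RNA-binding and DNA-binding protein of the nuclear matrix, with RNA recognition motifs and zinc fingers. It binds pyrimidine-rich stretches in introns, partly together with the polypyrimidine tract-binding protein PTB, and is known for repressing nearby exons. In PAR-CLIP, cells take up a photoreactive uridine analogue, which after crosslinking is read as a T-to-C change, and RNase T1 cuts the bound RNA after G.

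The sequences of the strongest sites show what was recovered: short stretches rich in T and C that usually stop at a G. The 15 sites with the highest geometric mean of reads over both WT libraries are printed 5′ to 3′ on the RNA strand as the bases covered in both libraries, with coordinates on hg38. Capitals mark the word TTCTT, the word TCTTT, the word CTCTT and the word TCTTC, pyrimidine words which resemble sites of PTB, and ATCTT, the core of the sequence that MATR3 prefers in vitro. Neighbouring words overlap one another, so a run of capitals can hold several.
EP300 (chr22:41094086-41094120, plus): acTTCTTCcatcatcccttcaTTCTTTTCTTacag
ARID1A (chr1:26726508-26726543, plus): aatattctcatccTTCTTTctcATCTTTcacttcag
RBM4 (chr11:66646171-66646201, plus): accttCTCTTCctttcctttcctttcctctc
USP9X (chrX:41126179-41126213, plus): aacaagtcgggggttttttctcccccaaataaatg
NACA (chr12:56720471-56720505, minus): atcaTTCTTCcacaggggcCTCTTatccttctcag
ARIH1 (chr15:72564517-72564549, plus): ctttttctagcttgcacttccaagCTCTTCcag
VCL (chr10:74021916-74021962, plus): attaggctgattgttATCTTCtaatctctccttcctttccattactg
EIF5A (chr17:7310317-7310374, plus): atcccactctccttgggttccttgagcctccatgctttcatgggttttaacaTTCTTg
PKM (chr15:72206404-72206439, minus): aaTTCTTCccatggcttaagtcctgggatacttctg
GPC3, first site (chrX:133913322-133913354, minus): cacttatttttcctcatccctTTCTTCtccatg
TTC19 (chr17:16008410-16008442, plus): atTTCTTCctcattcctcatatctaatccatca
SRPK1 (chr6:35878365-35878388, minus): cTTCTTactccaccATCTTCtcag
E2F3 (chr6:20407642-20407674, plus): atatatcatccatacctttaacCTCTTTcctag
HDAC9 (chr7:18533943-18533977, plus): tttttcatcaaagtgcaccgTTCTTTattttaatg
GPC3, second site (chrX:133913103-133913138, minus): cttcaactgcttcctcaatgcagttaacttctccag

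The site in EP300, a histone acetyltransferase and transcriptional coactivator, was the strongest in both libraries together, with 1070 reads in WT1 and 1252 in WT2. ARID1A, a subunit of the BAF chromatin remodelling complex, had 1070 and 916 reads. Its shared bases held ATCTT inside a longer pyrimidine run, and 62.1% of the reads in WT1 and 96.7% in WT2 carried a T-to-C change. RBM4, itself a splicing regulator, had 1342 and 614 reads, with 38.5% and 65.1% of them changed. Its 31 shared bases were 96.8% pyrimidine. The WT1 cluster reached beyond them, at 112 nt against 31 nt in WT2, and the peaks lay 107 nt apart. Reads at these 3 sites were high in both libraries, whereas other strong sites leaned to WT1. VCL, which encodes the adhesion protein vinculin, had 1512 reads there against 224 in WT2, and EIF5A, a translation factor, had 1456 against 192. The VCL reads were 98 distinct sequences in WT1 and 7 in WT2, and those of EIF5A were 140 and 12. The EIF5A cluster was 180 nt long in WT1 and 58 nt in WT2, so its counts cover unlike stretches.

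Other strong sites lay in genes of ubiquitin handling, metabolism and the cell surface. USP9X, a deubiquitinase, had 1207 and 333 reads at a site with none of the words and only 51.4% pyrimidine. ARIH1, a ubiquitin ligase, had 830 and 440 reads, and NACA, a subunit of the nascent polypeptide-associated complex, had 873 and 435. PKM, the pyruvate kinase gene whose exon choice is a textbook case of PTB-regulated splicing, had 375 and 600 reads. The first site of GPC3, a heparan sulfate proteoglycan of the cell surface, had 340 and 596 reads and the second had 263 and 623. All 3 of these sites had more reads in WT2.

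The lowest of the 15 by reads were similarly mixed in the direction of their difference. SRPK1, a kinase of SR splicing factors, had 503 and 379 reads, and TTC19, a mitochondrial protein needed for respiratory complex III, had 462 and 413. E2F3, a cell cycle transcription factor, had 660 and 264 reads, and the site of the histone deacetylase gene HDAC9 had 314 and 535. Changed reads made up 73.3% and 99.2% at E2F3 and 54.8% and 61.7% at HDAC9.

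Only a minority of deep clusters, here those with at least 50 reads, met a partner in the other library. The sites were 1232 of 10091 deep intronic clusters of WT1, or 12.2% (95% Wilson interval 11.6 to 12.9%), and 1241 of 9582 in WT2, or 13.0% (12.3 to 13.6%). A further 522 deep clusters of WT1 (5.17%) lay over a cluster of WT2 that had fewer reads or was not intronic, and 8337 (82.6%) lay over none. WT2 listed 22569 intronic clusters of any depth against 73317 in WT1, which limits the overlap that could be seen. The share with a deep partner was larger in deeper clusters, from 8.22% of those with 50 to 99 reads to 19.2% at 100 to 199, 39.0% at 200 to 499 and 68.3% (28 of 41) at 500 or more in WT1. The same classes gave 9.39%, 15.7%, 39.8% and 84.6% (11 of 13) in WT2. Clusters below a minimum of reads are left out of the tables, so a site missing from 1 library is not shown to be unbound there.

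Reads per site had a median of 100 (quartiles 71 to 163) in WT1 and 107 (75 to 160) in WT2, with highest values of 1512 and 1252. In 894 sites (72.6%) the counts lay within 2-fold of each other; 576 sites had more reads in WT1, 647 had more in WT2 and 9 were equal. Across the 1232 sites Spearman's rho of the log2 reads was 0.297 and Pearson's r was 0.359, as a description of points that share their library, amplification and sequence. The lower limit of 50 reads in each library cuts both distributions. The reads rested on fewer distinct sequences in WT2, with a median of 5 per site against 11 in WT1. Over all sites together there were 23.6 reads for each distinct sequence in WT2 and 9.41 in WT1.

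**Figure D1:**
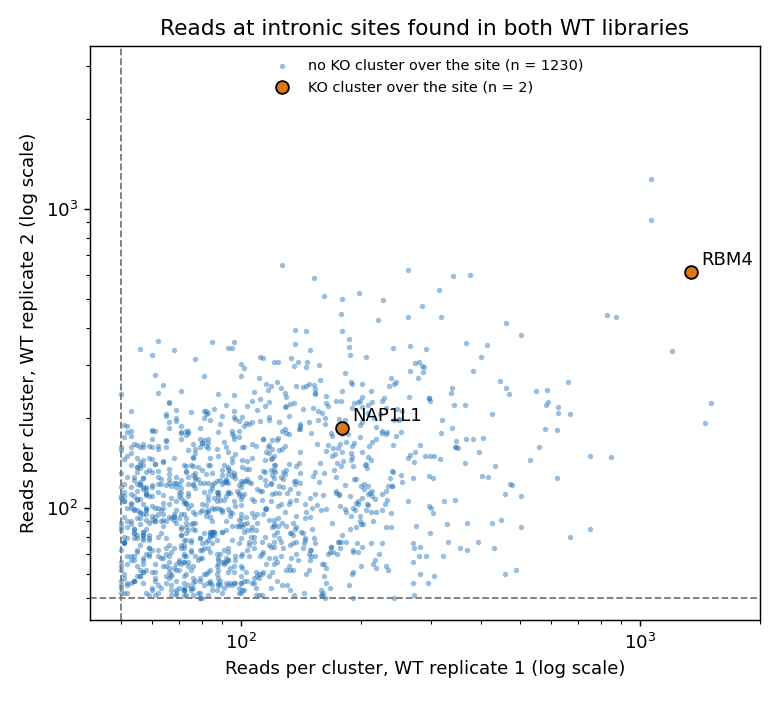
Reads per cluster at the 1232 sites, WT1 (x, log scale) against WT2 (y, log scale); each point is a site, dashed lines mark the limit of 50 reads, and the larger points are the 2 sites over a KO cluster. Most points sit near the lower left corner, with medians of 100 and 107 reads, and EP300 at 1070 and 1252 is the upper right point.

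At the sites the clusters of both libraries often shared an end, and less often both. They shared their 5′ end at 755 sites (61.3%), their 3′ end at 783 (63.6%) and both ends at 494 (40.1%, interval 37.4 to 42.9%). The overlap covered the whole of the shorter cluster at 1164 sites (94.5%) and at least 50% of it at 1222 (99.2%), although the rule asked for only 1 nt. Median overlap was 33 nt (quartiles 31 to 35), against median cluster lengths of 35 nt in WT1 and 34 nt in WT2. All 1232 pairs carried the same gene name in both tables.

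The positions of the peaks agreed less closely than the ends. The peak, the position that the deposited tables give as the mode of a cluster, was the same base at 72 sites (5.84%), within 5 nt at 357 (29.0%, interval 26.5 to 31.6%) and within 20 nt at 963 (78.2%). The median distance was 11 nt (quartiles 4 to 19). The base at the peak was T in 42.4% of sites in WT1 and 48.3% in WT2, and G in 11.6% and 11.2%. ARID1A, with both cluster starts at the same base, had peaks 50 nt apart; its cluster was 72 nt long in WT1 and 36 nt in WT2.

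**Figure D2:**
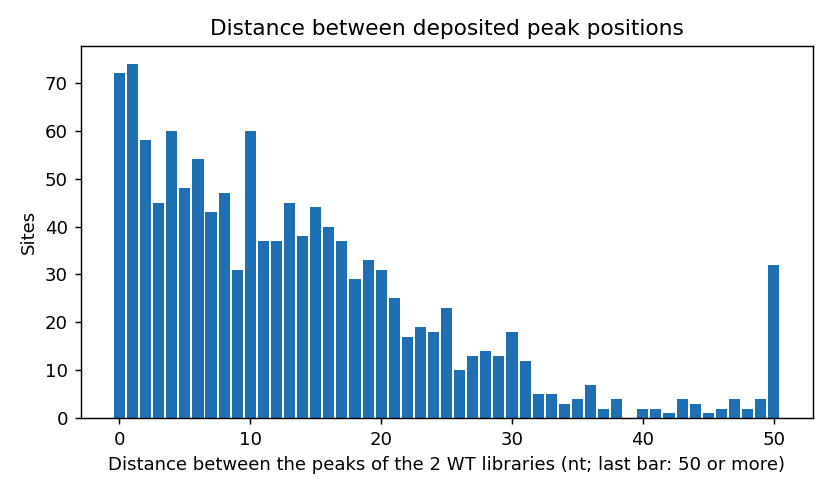
Distance in nt between the peak positions of the overlapping clusters of the WT libraries (x) against the number of sites (y); the last bar collects distances of 50 nt or more. The peaks are the same base at 72 sites, and the median distance is 11 nt.

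T-to-C changes, the mark of crosslinking, stood in most reads at most sites, in shares typically no higher than in other deep clusters. In a typical site 74.0% of reads in WT1 (quartiles 66.4 to 84.6%) and 96.3% in WT2 (80.8 to 98.3%) carried a change, against 78.0% and 97.3% in the deep intronic clusters outside the sites. Some sites had very few changed reads in both libraries. The fraction was 0.0253 in WT1 and 0.0506 in WT2 at a site in BMPR1A, and 0.0811 and 0.0297 at the SYNCRIP site. Of all T positions in the reads, 6.88% (interval 6.85 to 6.91%) and 6.71% (6.68 to 6.75%) were converted at the sites and 7.15% and 7.58% in the other deep clusters. The WT mean was 6.80% ± 0.117 (SD, n = 2) for sites and 7.36% ± 0.303 for the others, so the difference, sites minus others, was -0.270 percentage points in WT1 and -0.863 in WT2. The intronic clusters of the KO library, which by design should hold background, had the highest value, 10.5% of T positions. Converted positions per cluster were more numerous at the sites, with medians of 7 in WT1 and 3 in WT2. Other deep clusters, which had fewer reads (medians 69 and 85), had 5 and 2. Converted T correlated over sites between the libraries with rho 0.418, a description across sites that share their sequence.

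The sites were rich in pyrimidines and poor in G. At the sites 42.5% of bases in WT1 and 43.6% in WT2 were T, 28.8% and 29.1% were C, 20.2% and 20.2% were A, and 8.46% and 7.02% were G. The median site was 71.9% pyrimidine in WT1 (quartiles 65.7 to 78.1%) and 72.7% in WT2. Other deep intronic clusters had 41.6% and 40.9% T and 8.49% and 10.9% G, and KO intronic clusters had 33.2% T and 16.5% G. As means of the WT libraries, T was 43.1% ± 0.768 (SD, n = 2) at sites and 41.2% ± 0.514 in the others, and G was 7.74% ± 1.01 and 9.70% ± 1.71. At the sites both libraries covered largely the same bases, so the SD of their sequence values does not measure replicate spread. The G difference, sites minus others, was -0.0321 percentage points in WT1 and -3.89 in WT2. It was 0.470 in WT1 when clusters of at least 100 reads were taken. Site sequences ended in G in 81.4% and 93.9% of cases, close to the 78.7% and 93.9% of other deep clusters, and 28.8% and 36.1% ended in AG.

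Pyrimidine words were more frequent in the sites than in other deep clusters of the same library. At least 1 of the 4 pyrimidine words stood in 928 of 1232 sites in WT1, or 75.3% (interval 72.8 to 77.7%), and in 885 of 1241 in WT2, or 71.3% (68.7 to 73.8%). Other deep intronic clusters held one in 66.8% (65.8 to 67.7%) and 55.9% (54.8 to 57.0%), so the sites were higher by 8.56 and 15.4 percentage points. The difference was of the same direction in both libraries, which share the sites. The WT means were 73.3% ± 2.84 (SD, n = 2) and 61.3% ± 7.68, where the SD of the sites again does not measure replicate spread. Per 1000 pentamer positions, which takes out cluster length, the words numbered 59.1 and 65.1 in sites and 52.7 and 44.96 in other deep clusters. Among KO intronic clusters 138 of 540 held a word, or 25.6% (22.1 to 29.4%), with 17.7 for each 1000 positions.

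Each word showed this order, also per 1000 pentamer positions. By that measure TTCTT stood at 16.7 in sites and 16.1 in other deep clusters of WT1, a small gap, and at 18.4 and 13.7 in WT2. ATCTT stood at 6.74 and 6.08 in WT1 and at 7.33 and 5.63 in WT2. TTCTT stood in 44.9% and 41.0% of sites against 39.8% and 31.5% of other deep clusters, and TCTTC in 41.6% and 38.4% against 33.3% and 24.7%. TCTTT stood in 43.6% and 40.4% against 38.0% and 32.5%, and CTCTT in 36.9% and 34.1% against 29.7% and 22.6%. ATCTT, the word of the in vitro preference of MATR3, was rarer: 22.1% of sites in WT1 (19.9 to 24.5%) and 19.9% in WT2 (17.8 to 22.2%) held it, against 19.1% and 15.9% of other deep clusters. In the KO clusters 6.48% did (4.70 to 8.88%). The ATCTT differences were 2.98 and 4.04 percentage points. The WT means were 21.0% ± 1.54 (SD, n = 2) and 17.5% ± 2.29, a gap no wider than the sum of both SDs. Sites and others were read in the same libraries, so those SDs do not measure the spread of their difference. The SD of the sites comes from largely the same bases in both libraries and may be too small.

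**Figure D3:**
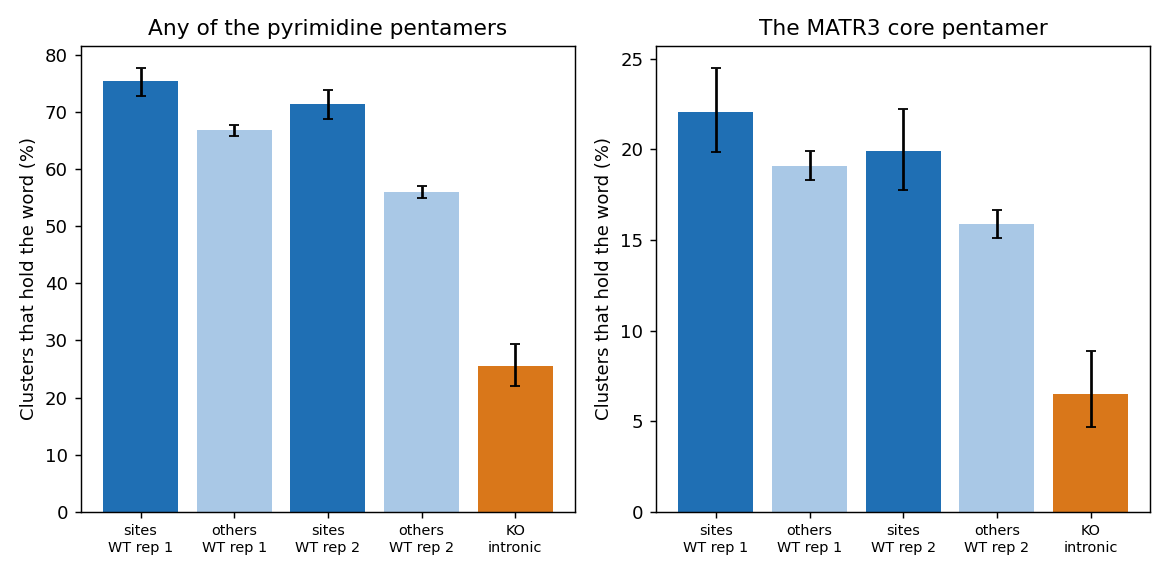
Share in percent of clusters that hold a word (y), in sites and other deep intronic clusters of each WT library and in KO intronic clusters (x). Any pyrimidine word and ATCTT are drawn in separate panels, and error bars are 95% Wilson intervals. For any pyrimidine word the sites stand at 75.3% and 71.3%, above the other deep clusters at 66.8% and 55.9% and the KO clusters at 25.6%.

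The difference in words was also seen among clusters of like depth in WT1. A pyrimidine word was held by 71.7% of sites and 65.5% of other clusters with 50 to 99 reads, by 76.8% and 70.3% with 100 to 199, by 81.9% and 74.7% with 200 to 499 and by 89.3% and 76.9% with 500 or more. In WT2 the first 3 classes gave 72.9% and 55.1%, 68.9% and 56.6%, and 72.0% and 65.0%. The deepest class of WT2 went the other way, at 90.9% of 11 sites against 100% of the others, which were only 2 clusters. Within the genes that hold a site, other deep clusters had a word in 66.0% of 3440 cases in WT1 and 56.9% of 2515 in WT2, so the comparison within those genes gave the same order.

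Sites with no word at all were a sizeable minority, 277 of 1232 (22.5%) counting only sites where none of the 5 words stood in either cluster. The strongest 4 of them were those of USP9X and GPC3 printed above and the following sites in CCNI, which encodes a cyclin, and HDLBP, which encodes the RNA-binding protein vigilin. They are shown because their letters are still mostly T, C and A.
CCNI (chr4:77071495-77071531, minus): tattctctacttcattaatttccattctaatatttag
HDLBP (chr2:241244085-241244122, minus): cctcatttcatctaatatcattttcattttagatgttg
CCNI had 415 reads in WT1 and 350 in WT2, and HDLBP had 624 and 208.

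Nearly all sites had no cluster in the KO library. A KO cluster overlapped 2 of 1232 sites, or 0.162% (interval 0.0445 to 0.590%), against 3 of 8859 other deep intronic clusters of WT1, or 0.0339% (0.0115 to 0.0995%), and 22 of 73317 intronic clusters of any depth, or 0.0300%. These intervals of the sites and the other deep clusters overlap. The KO table lists 842 clusters in all, 540 of them intronic, which caps the overlap that could be seen, and its sequencing depth is unknown.

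The 2 exceptions lay in RBM4 and NAP1L1, and the KO sequences are shown because they fall on the same bases as the WT ones.
RBM4 in KO (chr11:66646171-66646204, plus): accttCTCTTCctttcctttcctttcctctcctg
NAP1L1 in WT (chr12:76072198-76072249, minus): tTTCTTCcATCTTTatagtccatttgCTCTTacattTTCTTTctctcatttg
NAP1L1 in KO (chr12:76072198-76072223, minus): CTCTTacattTTCTTTctctcatttg
The RBM4 cluster was the deepest intronic cluster of the KO library, with 1199 reads of 47 distinct sequences and 10 converted positions, against 1342 and 614 reads in the WT libraries. Only 16.0% of its KO reads carried a T-to-C change, compared with 38.5% and 65.1% in WT. The RBM4 cluster was 34 nt long in KO, 112 nt in WT1 and 31 nt in WT2. Its WT1 reads and changed share thus cover a longer stretch than the KO values. NAP1L1, a histone chaperone gene, had 179 and 184 reads in WT and 72 in KO, where they were copies of 1 sequence and all changed. That KO cluster ranked 455 among the 540.

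The sites fell in 857 genes. Of these, 618 held 1 site and 239 held more, which together had 614 sites (49.8%). Of 3446 genes with a deep intronic cluster in WT1, 24.9% held a site; the share was 7.53% of genes with 1 deep cluster, 18.1% with 2, 33.4% with 3 to 4, 56.5% with 5 to 9 and 94.2% (114 of 121) with 10 or more. Genes with a site had a median of 4 deep clusters and genes without had 1. A site is itself a deep cluster, so these shares rest in part on the rule and are given as a description. In 1612 genes both WT libraries had deep intronic clusters without any that overlapped. Clusters are not corrected for the amount of each precursor RNA, so more binding and more intronic RNA cannot be told apart.

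**Figure D4:**
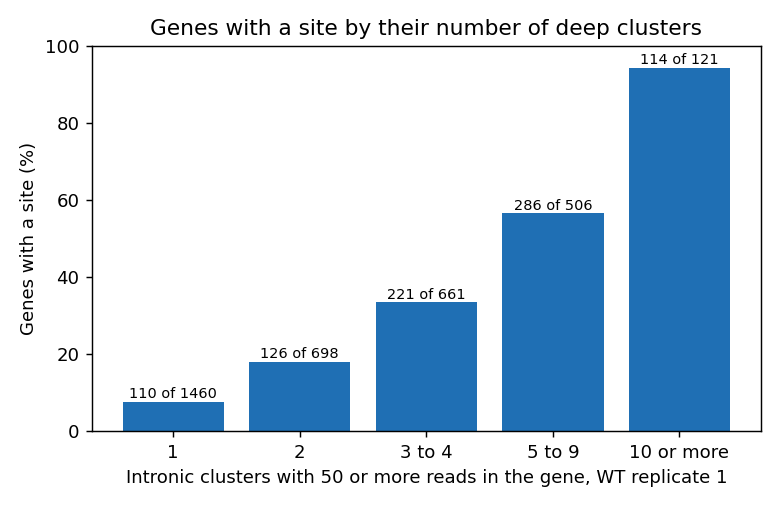
Percent of genes that hold a site (y) by the number of deep intronic clusters of the gene in WT1 (x), with the number of genes above each bar. The share climbs from 7.53% of genes with 1 deep cluster to 94.2% of those with 10 or more, with 24.9% over all genes.

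HDAC9, a class IIa histone deacetylase, had the most sites, 12, spread over 146 kb among 33 deep clusters in WT1 and 38 in WT2. Their reads ran from 50 to 368 (median 97.5) in WT1 and from 51 to 535 (median 149) in WT2. The KO library had no cluster in the gene, the usual case, since 14.9% of genes with a site had an intronic one. A pyrimidine word was held by 10 of them. A selection along the gene is printed to show how the letters vary within 1 transcript, from word-rich to word-free.
HDAC9 at 18533724 (chr7:18533724-18533762, plus): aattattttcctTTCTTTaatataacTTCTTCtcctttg
HDAC9 at 18535099 (chr7:18535099-18535131, plus): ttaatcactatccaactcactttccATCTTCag
HDAC9 at 18546533 (chr7:18546533-18546562, plus): acaccTTCTTTctccttctcattCTCTTag
HDAC9 at 18601532 (chr7:18601532-18601562, plus): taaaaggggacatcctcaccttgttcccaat
HDAC9 at 18614184 (chr7:18614184-18614221, plus): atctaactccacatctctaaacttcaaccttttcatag
HDAC9 at 18653362 (chr7:18653362-18653397, plus): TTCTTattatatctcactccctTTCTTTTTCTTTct
HDAC9 at 18679602 (chr7:18679602-18679632, plus): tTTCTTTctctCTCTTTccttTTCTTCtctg
The site at 18535099 had 368 reads in WT1 and 170 in WT2, and the one at 18546533 had 199 and 172. The word-free site at 18614184 had 66 and 185 reads, and the other word-free site, at 18601532, had 72 and 51. The run at 18679602, 96.8% pyrimidine, had only 74 and 64 reads, so within HDAC9 the most pyrimidine-rich letters did not carry the most reads.

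**Figure D5:**
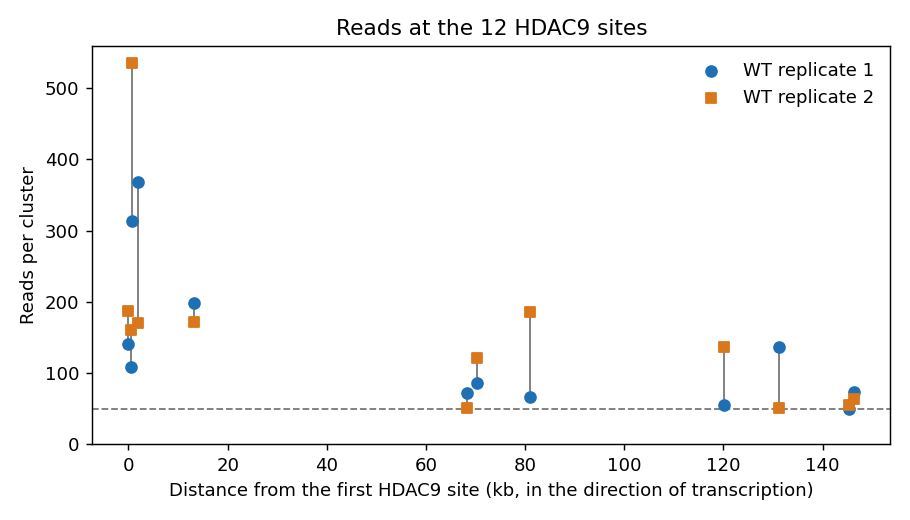
Reads per cluster (y) at the 12 sites of HDAC9 against their distance from the first of them in kb (x), for both WT libraries, with a line joining the values of a site and a dashed line at 50 reads. The site with 314 reads in WT1 and 535 in WT2 lies in the group at the left end, and the sites reach over 146 kb.

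The other genes with many sites belong to several functions. GPC3 had 9 sites, with medians of 82 reads in WT1 and 138 in WT2. SND1, a Tudor domain protein that binds RNA, also had 9, over 283 kb, with medians of 99 and 112. ANKRD17, an ankyrin repeat protein, had 8 with 177 and 103, and XRN2, the nuclear exonuclease that degrades RNA after transcript cleavage, had 7 with 105 and 99. LRPPRC, which stabilises mitochondrial mRNAs, had 5 with 234 and 118, PRRC2C 5 with 218 and 198, TTC19 5 with 275 and 127, and ARID1A 5 with 129 and 161. Among the 9 GPC3 sites 6 held a pyrimidine word, among the 7 of XRN2 only 3, and among the 5 of ARID1A all 5.

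MATR3's own transcript was among them, with 7 sites over 21.4 kb. Their reads ran from 97 to 345 (median 208) in WT1 and from 69 to 338 (median 159) in WT2. The table of the KO library listed no cluster in MATR3, against 53 in WT1 and 26 in WT2. Only 14.9% of genes with a site had an intronic KO cluster, so its absence is nothing particular to MATR3. The deposited clusters show RNA fragments recovered, and give no level of the MATR3 transcript or protein. A pyrimidine word stood in 4 of the 7 sites.

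Among 61 genes of splicing and RNA-binding proteins, 40 had a deep cluster in WT1 and 18 of those (45%) held 29 sites, beside 24.9% of all genes. The list's genes had a median of 3 deep clusters each, against 2 over all genes. PTBP2, the neuronal form of PTB, had 2 sites, the deeper with 180 reads in WT1 and 497 in WT2. SRSF3, an SR splicing factor, had 753 and 149 reads, and TRA2B, a splicing activator, had 2 sites, with 345 and 106 reads at one and 223 and 205 at the other. TIAL1, which binds U-rich RNA next to 5′ splice sites, had 404 and 171 at the deeper of its 2. ELAVL1, the HuR protein that binds AU-rich elements, had 192 and 224 reads, and SYNCRIP, an hnRNP, 296 and 101. The fraction of SYNCRIP reads with a T-to-C change was only 0.0811 in WT1 and 0.0297 in WT2, far below a typical site. NONO, a paraspeckle protein, had 168 and 74 at one site and 101 and 137 at the other.

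Chromatin and transcription regulators numbered 54 on the list, and 18 of the 40 with a deep cluster (45%, beside 24.9% of all genes) held 40 sites. They had a median of 5 deep clusters per gene, and 56.5% of all genes with 5 to 9 deep clusters held a site. HDAC9, ARID1A and EP300 held 19 of the 40. CHD2, a chromatin remodeller, had 263 and 433 reads, KDM6A, an H3K27 demethylase, 280 and 308 at the deeper of 2 sites, and EZH2, the methyltransferase of that residue, 317 and 177 at the deeper of 2. For ubiquitin ligases and their partners the count was 9 of 32 genes (28.1%, beside 24.9% of all genes) with 15 sites and a median of 4 deep clusters per gene. ARIH1 and FBXW7, the receptor of a cullin-RING ligase, had 3 sites each, and UBE3A, another ligase, had 1 with 298 and 149 reads.

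Heparan sulfate, adhesion and matrix genes held 22 sites in 10 of 22 genes (45.5%, beside 24.9% of all genes), with a median of 3 deep clusters per gene. Of these sites GPC3 and its relative GPC4 had 9 and 4. ITGB1, the integrin β1 chain, had 245 and 263 reads. DNA repair genes held 15 sites in 11 of 27 (40.7%, beside the same 24.9%), with a median of 4 deep clusters per gene. Shares by number of deep clusters, given above, run from 33.4% at 3 to 4 to 56.5% at 5 to 9. XRCC5, the Ku80 subunit of DNA end joining, had 4, and POLA1, the catalytic subunit of DNA polymerase alpha, had 1 with 229 and 232 reads. ATR, the replication stress kinase, had 129 and 130 reads, and PRKDC, the catalytic subunit of DNA-dependent protein kinase, had 104 and 218.

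The last list held genes of cytosolic nucleic acid sensing, the pathway that the study's title names. Of 23 genes 5 had a deep intronic cluster, with a median of 2 each as over all genes, and 1 of the 5 (20%) held a site, beside 24.9% of all genes. That gene was RNASEH2B, a subunit of the RNase H2 enzyme that removes RNA from DNA, with 56 reads in WT1 and 92 in WT2. Blood and leukaemia markers were looked up because HAP1 descends from a leukaemia. PTPRC, SPN, GATA1, TAL1, CD34 and BCR had no cluster in any library, KIT, MYB and ABL1 had 2, 1 and 5 in WT1, and none held a site. Clusters record bound RNA and not expression, so these values do not check the identity of the line.

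Sites lay toward the 5′ part of long genes. By the RefSeq gene intervals of GRCh38.p14, which named 1227 of the 1232 sites, the median site was 32.8% of the gene's length from its 5′ end (quartiles 14.2 to 57.7%), and 34.6% of sites lay in the first 20% of the gene against 8.48% in the last 20%. Other deep clusters were alike, with a median of 33.4%, and all intronic clusters of WT1 had 37.6%. Genes with a site had a median length of 84.1 kb, genes with deep clusters but no site 64.0 kb and all genes with an intronic cluster 52.8 kb. Another cluster of WT1 lay within 500 nt of 918 sites (74.5%), against 61.5% of other deep clusters, and another site lay within 1000 nt of 204 (16.6%).

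At the limit of 50 reads, 24 sites had 50 as the smaller count of the pair and 37 overlapping intronic pairs just missed with 49. Just inside were FAM102B with 50 and 52 reads and a further site of PKM with 50 and 54, and just outside were TIAL1 with 229 and 49 and PPA2, the mitochondrial pyrophosphatase, with 49 and 209.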

How the data were processed

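Per the labels' protocols, crosslinked HAP1 lysates were treated with RNase T1, immunoprecipitated, and the labelled MATR3 band was made into small RNA libraries. Cutadapt 1.8.3 and Bowtie 1.1.2 and the builds hg38 and GRCh38.p5 are named in the submitters' processing notes; the cluster caller and its filters are not given in the sources used here. The deposited tables hold, per the file headers, 1 cluster per line with counts of reads, distinct sequences and converted positions, the fraction of reads showing T-to-C conversion, and the peak position. Every listed cluster had at least 5 reads and 2 converted positions, and total depth is unknown. Read counts were used as deposited, with no scaling between libraries and no count model.

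Overlaps, Wilson 95% intervals and word counts were computed with Python 3.11.15, pandas 2.3.3, numpy 2.4.6 and scipy 1.17.1, and figures with matplotlib 3.10.9; the overlap code was tested on simulated clusters. Named were the 15 sites with the highest geometric mean of reads, sites over a KO cluster, the 2 pairs on each side of the limit, the 10 genes with most sites, and members of the gene lists with a site; CCNI and HDLBP and the HDAC9 selection were chosen after their values were seen. The sites and gene lists were chosen with earlier results of these data known. Alternatives changed the minimum of reads, overlap and converted positions, trimmed cluster ends by 3 nt, moved the peak tolerance and took the values of each WT library alone.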

Additional observations from a re-analysis of the deposited data

Results flagged for a closer look

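Clusters in introns of long intergenic noncoding RNAs are annotated apart from other introns and enter none of the comparisons above. In that class 13 of the 114 clusters with at least 50 reads in WT1 (11.4%, 95% Wilson interval 6.79 to 18.5%) overlapped such a cluster of WT2, beside 12.2% of deep clusters in other introns. None of the 13 (0) overlapped a KO cluster, but only 0.0300% of all intronic clusters of WT1 did, so that count says nothing particular about them. They are listed because they are signal outside the main measurement.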

How the results depend on the processing

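With at least 20 reads there were 2845 sites in 1620 genes, with at least 100 there were 398 in 330, and with at least 3 converted positions 694 in 534. Trimming 3 nt from each end gave 6.05% G, 67.1% of sites with a pyrimidine word and 17.6% with ATCTT. Converted T was 6.996% at 20 reads and 6.92% as a median over clusters. Pyrimidine words stood in 77.0% of sites at 3 converted positions and ATCTT in 22.8% at 100 reads. Peaks agreed at 5.84% of sites at 0 nt and 48.1% at 10 nt. Spearman's correlation of the reads between the WT libraries was 0.207 at 100 reads and 0.356 at 3 converted positions. The cause of these shifts was not tested. The difference in pyrimidine words between sites and other deep clusters was positive in both libraries in the main setting and the 4 alternatives on reads, overlap and converted positions (it was not computed for trimmed ends), from 6.83 to 15.7 percentage points, while the G difference in WT1 turned positive at 100 reads (0.470) and at 3 converted positions (0.0744). Read in 1 WT library alone, the same sites gave T from 42.5 to 43.6%, G from 7.02 to 8.46% and converted T from 6.71 to 6.88%. Pyrimidine words ran from 71.3 to 75.3% and ATCTT from 19.9 to 22.1%. These are the values per library given above. The sites were still defined in both libraries, so the values do not show how the results depend on either library. The KO overlap was 2 or 3 sites. No paired analysis was possible because the label of the 1 KO library gives no replicate number and no result comes from a test.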

Other observations

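The deposited share of reads ending in G differed by strand. At the 688 sites on the plus strand its median was 77.6% in WT1 and 100% in WT2, and at the 544 on the minus strand it was 0 in both. The cluster sequences themselves ended in G at 73.7% and 90.7% of plus-strand sites and at 91.2% and 97.6% of minus-strand sites. That column was used for no other value.

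Genes that hold a site had an intronic KO cluster anywhere in the gene in 128 of 857 cases (14.9%), against 344 of 3446 genes (9.98%) with a deep intronic cluster in WT1, which include them.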
